A study of Mus musculus with 6 samples.

Results

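The genes described here are 10 mouse enzymes that write or erase methyl groups on lysine 4 of histone H3 (H3K4), read in RNA of 2-cell embryos cultured with sodium arsenite. They are the methylases Kmt2a, Kmt2b, Kmt2c, Kmt2d, Setd1a and Setd1b and the demethylases Kdm1a, Kdm1b, Kdm5a and Kdm5b, chosen by symbol, and all 10 were found among the 18649 gene rows used. Poly(A) RNA was sequenced from 3 arsenite libraries, whose embryos had 5 µM sodium arsenite (a trivalent arsenic salt) in G1-PLUS medium, and from 3 control libraries labelled 0 µM. No strain, genotype, age, hour of collection or number of embryos was given for either group in the sources used here. Nothing in the labels says whether libraries of a group came from separate cultures, so each p-value speaks to the spread among these libraries, part of which may be technical.

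Methylation of H3K4 is laid down by the SET1/MLL enzymes, each working inside a complex named COMPASS, and is removed by the flavin-dependent KDM1 enzymes and the oxygen-dependent KDM5 enzymes. KDM1 enzymes take away mono- and dimethyl groups, and KDM5 enzymes take away di- and trimethyl groups. Mouse oocytes carry unusually broad domains of H3K4 trimethylation, deposited largely by MLL2 (the product of Kmt2b), and after fertilization KDM5A and KDM5B take part in clearing them at about the time the embryo's own genome is switched on.

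Of the 10 enzymes 1 passed the test. Kdm5b RNA fell in arsenite embryos, 2.27-fold below its control level, and Kdm5a, its paralog, lay 1.90-fold lower without passing. Kdm1b lay 2.44-fold higher without passing. Of 8 alternative fits on all 6 libraries 5 called Kdm1b, among them the fit with the replicate number as a block, and 4 called Kdm5a. Of 6 fits that each left out a library 0 called Kdm1b (adjusted p up to 0.219), 1 called Kdm5a and 3 called Kdm5b. None of the 6 methylases passed, and Kmt2c, which supplied most methylase reads, had nearly equal means in both groups.

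The sequences just upstream of the start sites of Kdm5b and Kdm1b are shown because these 2 demethylases had the strongest evidence of a difference in each direction. They are the 250 bases before the RefSeq start on GRCm38.p6, plus strand, at chr1:134559928-134560177 for Kdm5b and chr13:47043249-47043498 for Kdm1b. Capitals mark the GC box GGGCGG on either strand, where the minus strand match reads CCGCCC.
Kdm5b: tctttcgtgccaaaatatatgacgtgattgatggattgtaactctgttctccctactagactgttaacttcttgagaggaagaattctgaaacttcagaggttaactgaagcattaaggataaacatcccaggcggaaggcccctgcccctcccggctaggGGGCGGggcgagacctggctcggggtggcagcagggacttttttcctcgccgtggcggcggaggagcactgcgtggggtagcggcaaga
Kdm1b: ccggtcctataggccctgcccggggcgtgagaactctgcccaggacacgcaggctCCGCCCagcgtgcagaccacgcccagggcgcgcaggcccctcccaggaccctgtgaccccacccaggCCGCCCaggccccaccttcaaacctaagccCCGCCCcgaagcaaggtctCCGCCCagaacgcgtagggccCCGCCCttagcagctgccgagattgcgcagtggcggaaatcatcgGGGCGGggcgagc
The Kdm5b window held 1 GC box and 13 CG dinucleotides, and the Kdm1b window held 6 GC boxes and 22 CG dinucleotides. Among 32851 mouse windows of the same length the median was 6 CG dinucleotides, and 32.7% held a GC box. RefSeq windows matched 7 of the 10 enzymes, and Kmt2b, Setd1b and Kdm5a were unmatched. GC boxes numbered 12 in the Kmt2c window, 4 in that of Kmt2a and 4 in that of Kmt2d, against 0 in those of Setd1a and Kdm1a. The windows were also searched on both strands for CCAAT (33.8% of all windows), the E-box CACGTG (6.02%), the antioxidant response element core TGACNNNGC (10.2%) and the AP-1 site TGANTCA (6.75%). The only match to these among the 7 enzymes was 1 CCAAT in the Kdm1a window, so no GC box overlapped another motif. A match or its lack describes letters in a window and nothing about a factor.

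Values are in CPM, the read count of a gene relative to the total of its library, with that total scaled by TMM, a factor that corrects for library composition. Fold changes are arsenite over control from edgeR's quasi-likelihood test, with a Benjamini-Hochberg p adjusted over 12582 tested genes, called at under 0.05. The standard error (SE) was derived from that test, as the absolute log2 fold change over the square root of its F statistic. Library totals ran between 7758507 counts in arsenite replicate 3 and 8519265 counts in control replicate 1. A floor of 3 counts corresponds to 0.352 to 0.387 CPM before TMM scaling. This floor covers counting error only because the PCR-amplified reads carry no stated molecular identifiers. The calls over all genes were 9.43% higher and 7.26% lower. With the replicate number as a block they were 13.4% higher and 12.6% lower. Among the enzymes 0 of 10 were higher and 1 of 10 was lower, close to those shares for so small a group, and 3 had an unadjusted p under 0.05. Their median log2 fold change was -0.16, against 0.07 over all genes tested.

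**Figure D1:**
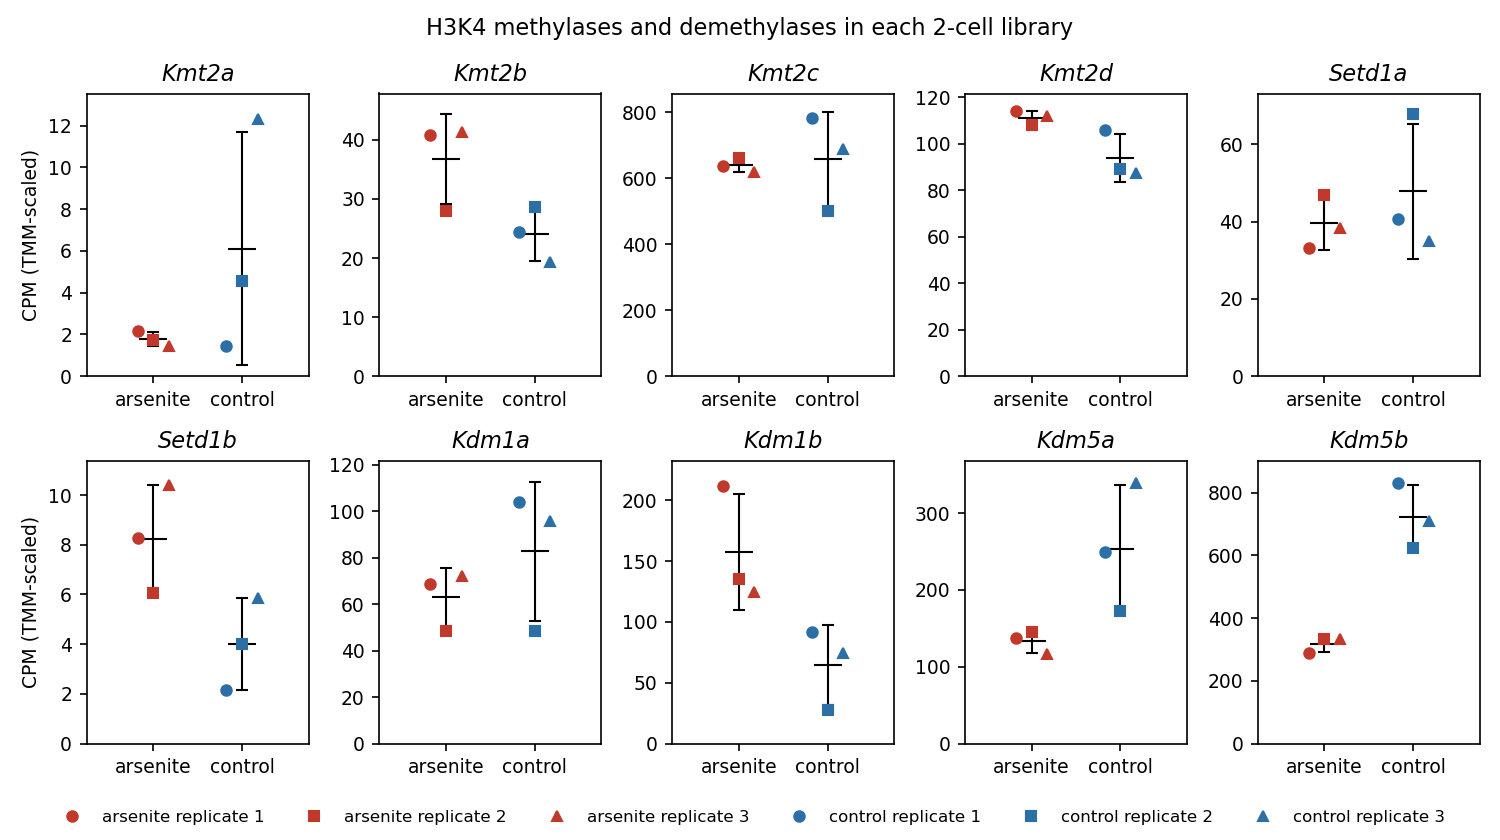
TMM-scaled CPM of each enzyme (linear axes starting at 0, a separate scale for each gene) in the 3 arsenite libraries on the left and the 3 control libraries on the right, with the mean and SD in black. The 3 arsenite points lie below the 3 control points for Kdm5a and Kdm5b and above them for Kmt2d, Setd1b and Kdm1b.

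Kdm5b (chr1:134560171-134635285, plus strand; gene positions are those of GENCODE M21 on mm10) encodes a demethylase of di- and trimethylated H3K4. It had 288, 333 and 334 CPM in arsenite replicates 1, 2 and 3, against 831, 624 and 709 CPM in control replicates 1, 2 and 3. Every arsenite library was below every control library, and the arsenite libraries lay close together. Kdm5b averaged 318 ± 26.1 CPM in arsenite embryos and 721 ± 104 CPM in controls (SD, n = 3 each). Its log2 fold change was -1.18 ± 0.27 (SE), with an edgeR adjusted p of 0.0189. Arsenite minus control within each replicate number was -1.53, -0.91 and -1.09 on the log2 scale. The call held in all 8 alternatives that used 6 libraries and was lost without arsenite replicate 1 (adjusted p = 0.080), control replicate 1 (0.0526) or control replicate 3 (0.0584).

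Kdm5a (chr6:120364124-120444574, plus strand), the second enzyme of this type, had 138, 145 and 116 CPM in arsenite replicates 1 to 3, against 249, 173 and 339 CPM in control replicates 1 to 3. The groups did not overlap, the nearest libraries being arsenite replicate 2 and control replicate 2. Kdm5a averaged 133 ± 15.3 CPM in arsenite embryos and 254 ± 83.2 CPM in controls (SD, n = 3 each). On the log2 scale the fold change was -0.93 ± 0.31 (SE), which did not pass in edgeR (adjusted p = 0.0633). Removing trends with transcript length and GC content gave -1.27 (adjusted p = 0.0134), and the call was also made with library size as the only scaling, by DESeq2 and without control replicate 2. Exons of Kdm5a share 251 bases with Ccdc77 on the opposite strand, 1.77% of its exon length, and the strand setting of the counting is not stated in the sources here. Ccdc77 had 22.4, 27.7 and 21.2 CPM in arsenite libraries, against 41.5, 43.8 and 57 CPM in controls.

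Kdm1b (chr13:47043499-47085279, plus strand) encodes the KDM1 enzyme of growing mouse oocytes, known for preparing maternally imprinted genes for DNA methylation. It had 212, 135 and 125 CPM in arsenite replicates 1 to 3, against 91.4, 27.9 and 74.5 CPM in control replicates 1 to 3. All arsenite libraries lay above all control libraries, with control replicate 2 lowest of the 6. Kdm1b averaged 157 ± 47.3 CPM in arsenite embryos and 64.6 ± 32.9 CPM in controls (SD, n = 3 each). Its log2 fold change was 1.29 ± 0.43 (SE), with an edgeR adjusted p of 0.0616, and 1.40 with an adjusted p of 0.0143 with the replicate block. It shares 505 exon bases (9.19%) with Dek on the opposite strand, which had 360, 290 and 505 CPM in arsenite libraries, against 323, 246 and 484 CPM in controls (edgeR adjusted p = 0.813).

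Kdm1a (chr4:136550540-136602723, minus strand), whose maternal protein mouse embryos need in early cleavage, had 68.7, 48.4 and 72 CPM in arsenite replicates 1 to 3, against 104, 48.5 and 95.7 CPM in control replicates 1 to 3. The lowest value of each group came from replicate 2, and the groups overlapped there. Kdm1a averaged 63 ± 12.8 CPM in arsenite embryos and 82.7 ± 29.9 CPM in controls (SD, n = 3 each), with a log2 fold change of -0.39 ± 0.36 (SE) and an edgeR adjusted p of 0.465.

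Kmt2c (chr5:25271798-25498783, minus strand), which monomethylates H3K4 at enhancers, had 638, 660 and 619 CPM in arsenite replicates 1 to 3, against 783, 500 and 688 CPM in control replicates 1 to 3. The control libraries spread to both sides of the arsenite libraries. It averaged 639 ± 20.7 CPM in arsenite embryos and 657 ± 144 CPM in controls (SD, n = 3 each). On the log2 scale the fold change was -0.04 ± 0.28 (SE), and edgeR's adjusted p was 0.936. Kmt2c made up 76.2%, 77.5% and 75.2% of the summed methylase CPM in arsenite libraries, against 81.8%, 72% and 81.2% in controls. Kmt2d (chr15:98831669-98871204, minus strand), its paralog with the same role, had 114, 108 and 112 CPM in arsenite replicates 1 to 3, against 106, 89.1 and 87.3 CPM in control replicates 1 to 3. The Kmt2d groups did not overlap, with arsenite replicate 2 just above control replicate 1, and its fold change of 0.25 ± 0.27 on the log2 scale (SE) had an adjusted p of 0.554 in edgeR.

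Kmt2b (chr7:30568858-30588726, minus strand), the trimethylase of oocytes named above, had 40.9, 27.9 and 41.3 CPM in arsenite replicates 1 to 3, against 24.4, 28.6 and 19.3 CPM in control replicates 1 to 3. Arsenite replicate 2 fell among the controls. Its log2 fold change was 0.61 ± 0.35 (SE), with an edgeR adjusted p of 0.248. Kmt2a (chr9:44803355-44881296, minus strand), the MLL1 gene that keeps Hox genes active in later embryos, rested on few reads, with 17, 15 and 10 counts in arsenite libraries, against 12, 41 and 101 counts in controls. These were 2.16, 1.71 and 1.46 CPM in arsenite replicates 1 to 3, against 1.44, 4.58 and 12.3 CPM in control replicates 1 to 3. Its control mean rests on replicate 3: the fold change of -1.77 ± 0.87 on the log2 scale (SE, adjusted p = 0.176 in edgeR) was -0.84 without that library.

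Setd1a and Setd1b encode the SET1 enzymes, which give most trimethylation of H3K4 at active promoters. Setd1a (chr7:127776670-127800122, plus strand) had 33.3, 47 and 38.3 CPM in arsenite replicates 1 to 3, against 40.6, 67.8 and 35 CPM in control replicates 1 to 3. Its groups overlapped, and its log2 fold change was -0.27 ± 0.36 (SE) with an edgeR adjusted p of 0.623. GENCODE M21 places another coding gene, Gm49388, on the same strand over most of the 52.3% of Setd1a exon bases that other genes share, so its level is uncertain. Setd1b (chr5:123142193-123168629, plus strand) had 8.27, 6.05 and 10.4 CPM in arsenite replicates 1 to 3, against 2.17, 4.02 and 5.85 CPM in control replicates 1 to 3. The groups did not overlap, and its fold change of 1.03 ± 0.62 on the log2 scale (SE) had an adjusted p of 0.261 in edgeR, with 53 to 71 counts in arsenite libraries and 18 to 48 counts in controls.

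**Figure D2:**
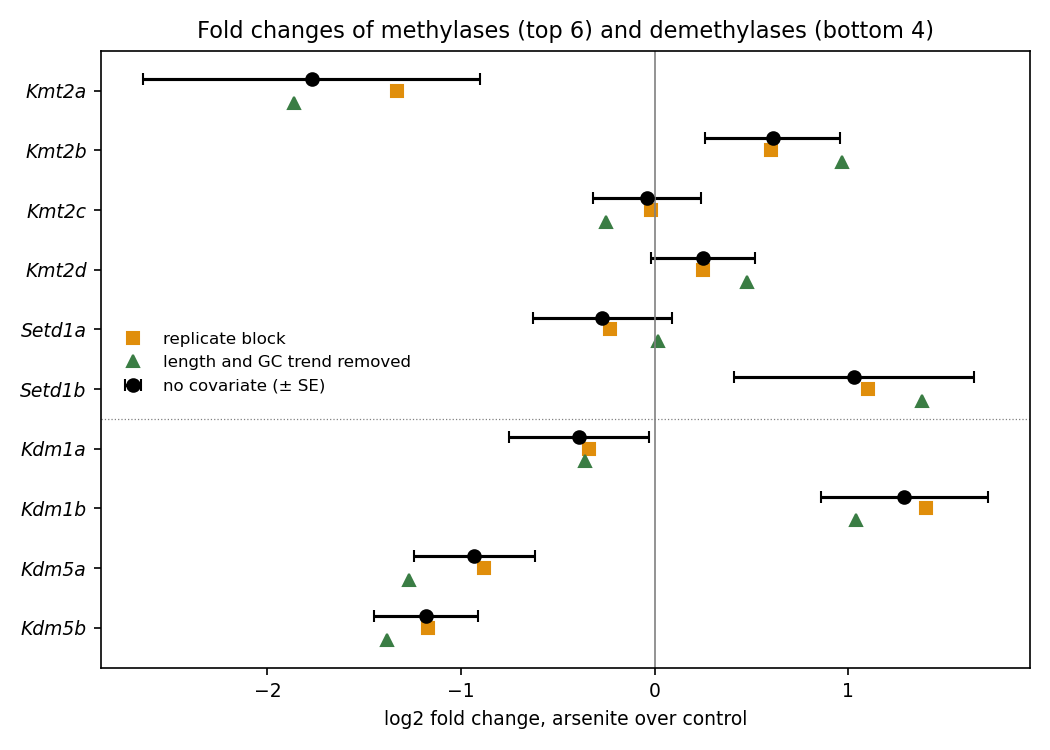
Log2 fold change, arsenite over control, of the 6 methylases (above the dotted line) and 4 demethylases, from edgeR with no covariate (black, bars are SE), with the replicate block (squares) and with length and GC trends removed (triangles). Setd1a is the one enzyme whose point crosses 0, at 0.02 with the trends removed, and Kdm5a, Kdm5b and Kdm1b keep their side of 0.

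Groups of 3 libraries did not overlap for 3 enzymes that were higher (Kmt2d, Setd1b, Kdm1b) and 2 that were lower (Kdm5a, Kdm5b), where 21.9% and 19.7% of all tested genes did so in those directions. The share among the 10 enzymes is near that background. Summed over the 4 demethylases, CPM were 707, 661 and 647 in arsenite libraries, against 1276, 873 and 1218 in controls. Kdm5a and Kdm5b summed to 426, 478 and 450 CPM in arsenite libraries, against 1080, 797 and 1047 CPM in controls. Their relatives Kdm5c and Kdm5d, outside the 10 enzymes, overlapped between the groups. These had log2 fold changes of -0.53 (edgeR adjusted p = 0.429) and -0.16 (0.94). The KDM1 pair summed to 281, 184 and 197 CPM in arsenite libraries, against 195, 76.4 and 170 CPM in controls. The 6 methylases summed to 837, 851 and 822 CPM in arsenite libraries, against 957, 694 and 848 CPM in controls. These sums are described and not tested, and bulk libraries cannot tell fewer cells of a kind apart from less RNA per cell.

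Levels between genes were compared per kilobase of exon, as CPM per kb. In arsenite libraries Kmt2c was highest at 31.5 ± 1.02, followed by Kdm1b at 28.7 ± 8.62, Kdm5b at 19.2 ± 1.58, Kdm1a at 12.2 ± 2.47 and Kdm5a at 9.4 ± 1.08 CPM per kb (SD, n = 3). In control libraries Kdm5b was highest at 43.6 ± 6.28, followed by Kmt2c at 32.4 ± 7.09, Kdm5a at 17.9 ± 5.87, Kdm1a at 16 ± 5.78 and Kdm1b at 11.8 ± 5.98 CPM per kb (SD, n = 3). The libraries of neighbours in this order overlapped for Kmt2c with Kdm1b and Kdm1a with Kdm5a in arsenite embryos, and for Kdm5b with Kmt2c, Kdm5a with Kdm1a, Kdm1a with Kdm1b and Kdm1b with Setd1a in controls. Setd1a also overlapped with Kmt2d in both groups, and Kmt2a with Setd1b in controls. Setd1a, Kmt2d and Kmt2b came next in both groups, between 3.83 and 5.82 CPM per kb in arsenite embryos and between 2.51 and 7.03 CPM per kb in controls. Setd1b and Kmt2a were lowest, with 0.682 and 0.107 CPM per kb in arsenite embryos, against 0.333 and 0.367 CPM per kb in controls. These levels depend on the length used. Over the longest transcript Kdm5b had 36.5 CPM per kb in arsenite embryos and 82.8 in controls, and Kdm1a had 20.8 CPM per kb in arsenite embryos and 27.3 in controls. On that length Kdm5b stood above Kdm1b in arsenite embryos, and Kdm1a above Kdm5a and Setd1b above Kmt2a in controls.

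A ratio of paralogs within a library needs no scaling between libraries. The log2 ratio of Kdm1a over Kdm1b (CPM + 0.5) was -1.62, -1.47 and -0.80 in arsenite replicates 1 to 3, against 0.18, 0.78 and 0.36 in control replicates 1 to 3. Kdm1b thus gave more CPM than Kdm1a in all 3 arsenite libraries and less in all 3 controls. The difference was -1.74 log2 units, with p = 0.1 in an exact two-sided permutation test, which cannot go lower with 3 libraries against 3, and 0.25 adjusted over 5 pairs. Kdm5a over Kdm5b averaged -1.26 ± 0.24 in arsenite libraries and -1.55 ± 0.43 in controls (SD, n = 3 each), and the groups overlapped (exact permutation p = 0.3). Kmt2a over Kmt2b averaged -4.02 ± 0.37 in arsenite libraries and -2.27 ± 1.54 in controls, with arsenite replicate 2 at -3.69 and control replicate 1 at -3.68 nearly touching. The difference of -1.75 was -0.92 without control replicate 3. Kmt2c over Kmt2d (2.51 in arsenite libraries and 2.78 in controls) and Setd1a over Setd1b (2.21 in arsenite libraries and 3.45 in controls) overlapped between the groups.

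**Figure D3:**
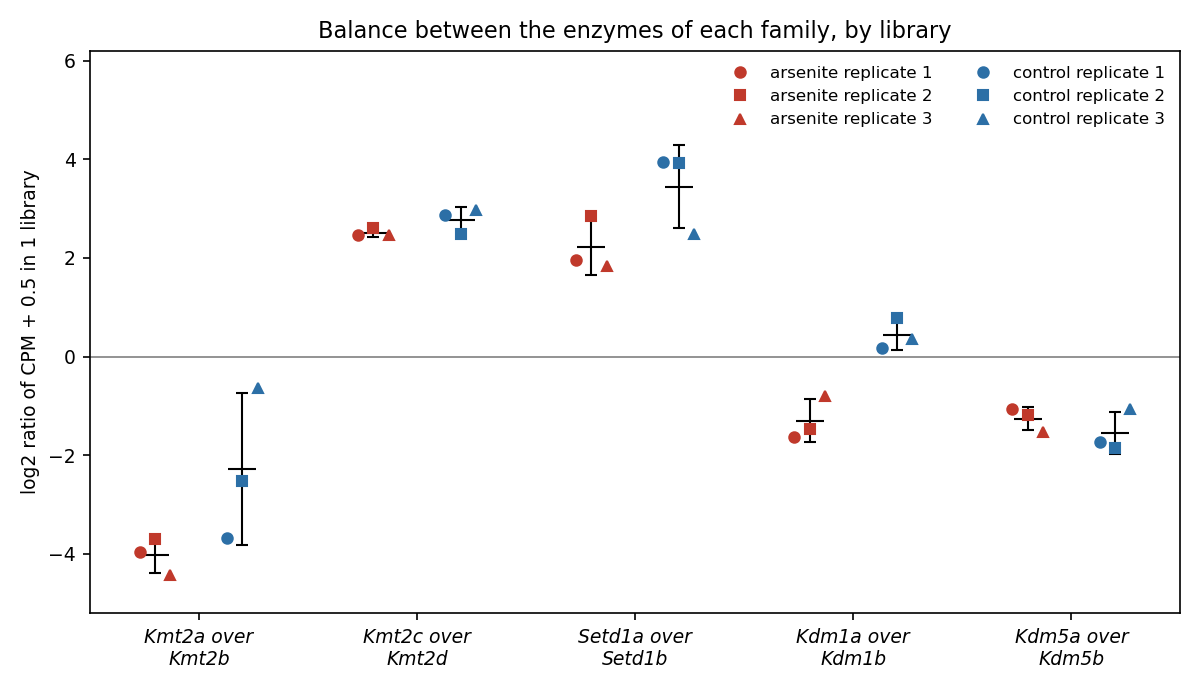
Log2 ratio of CPM + 0.5 between 2 related enzymes in each library, arsenite on the left and control on the right of each pair, with mean and SD in black. Kdm1a over Kdm1b lies below 0 in the 3 arsenite libraries and above 0 in the 3 control libraries, while Kdm5a over Kdm5b overlaps.

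The partners of these enzymes were read from lists of genes set out by function. The COMPASS core subunits shared by all 6 methylases gave no call among 4 tested, with a median log2 fold change of 0.20. Wdr5, the core's scaffold, had 121, 158 and 133 CPM in arsenite libraries, against 200, 321 and 225 CPM in controls, without overlap. Its fold change on the log2 scale was -0.86 ± 0.29 (SE), with an adjusted p of 0.0671 in edgeR and of 0.0323 with the replicate block. Dpy30 ranged between 81.5 and 476 CPM in arsenite libraries and between 106 and 148 CPM in controls (edgeR adjusted p = 0.179), and Rbbp5 and Ash2l had log2 fold changes of 0.18 and 0.22. Of 12 subunits particular to some COMPASS complexes none passed, with 3 at an unadjusted p under 0.05 and a median of 0.32. The nearest were Hcfc1, the host cell factor of SET1 and MLL1/MLL2 complexes, at -0.78 ± 0.29 (SE, edgeR adjusted p = 0.0877) and Wdr82, a SET1 complex subunit, at 0.85 ± 0.33 (adjusted p = 0.0991). With the replicate block Wdr82 (adjusted p = 0.0434) and Kdm6a (0.0406) were called higher. With length and GC trends removed Bod1l was called lower (-0.97, adjusted p = 0.0256), and with both Bod1l was lower (0.011), Wdr82 higher (0.0496) and Kdm6a not called (0.0798).

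Of 12 partners of the KDM1 enzymes 1 was higher and 0 lower, with a median log2 fold change of 0.25. This count is near the 9.43% of all genes called higher and says nothing particular to these partners. Hdac2, a histone deacetylase of the CoREST complex, rose to 121, 180 and 160 CPM in arsenite libraries, against 68.6, 70.1 and 57.7 CPM in controls, with no overlap. Its log2 fold change was 1.23 ± 0.29 (SE), with an edgeR adjusted p of 0.0198, and the call was lost with length and GC trends removed (0.86, adjusted p = 0.0599) and in 4 of 6 fits that left out a library. Of 8 further genes listed with the H3K4 enzymes 6 were tested and none passed. Of these, 0 had an unadjusted p under 0.05, and the median was -0.20. Whether each gene's product acts on H3K4 was not examined. The nearest were Kmt2e, a relative of the MLL genes, at 1.00 ± 0.54 (SE, edgeR adjusted p = 0.213) and the lysine methylase gene Smyd2 at 1.98 ± 1.28 (adjusted p = 0.298).

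**Figure D4:**
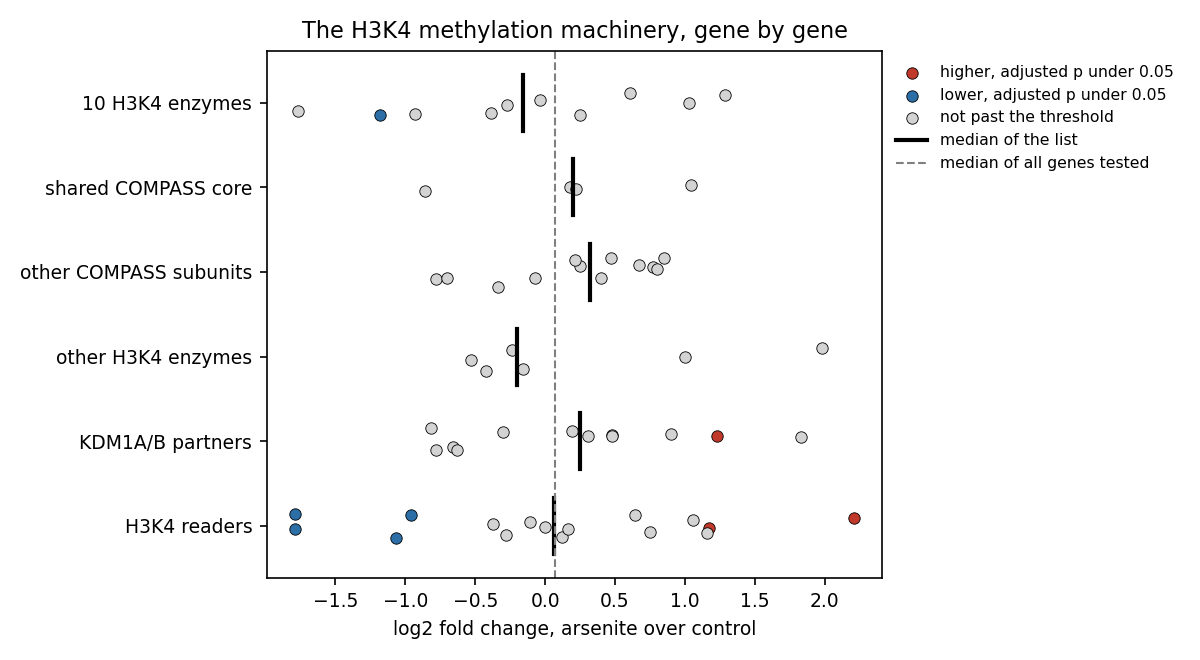
Log2 fold change of each tested gene in the 10 enzymes and 5 related lists, red where called higher and blue where called lower (edgeR adjusted p under 0.05), with the list median as a black bar and the median of all genes tested dashed. Called genes number 1 of the 10 enzymes (lower), 1 of 12 KDM1 partners (higher) and 6 of 16 readers (2 higher, 4 lower), beside 9.43% higher and 7.26% lower over all genes, and lists were not tested against each other.

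Marker lists were summed in each library. Their counts of calls stand beside 9.43% higher and 7.26% lower over all genes, and lists were not tested against all genes. A single call among 4 or 8 tested genes cannot be set apart from those shares. Maternal and oocyte transcripts (14 of 15 matched by symbol) summed to 13319, 10425 and 16280 CPM in arsenite libraries, against 10100, 6816 and 11175 CPM in controls. Of 12 tested, 5 were higher and 0 lower. These sums overlapped. Most of each control sum was Dppa3, with 6094, 1999 and 10576 CPM in arsenite libraries, against 7829, 5460 and 9950 CPM in controls. The overlap of the sums therefore says little about the other maternal genes. Of the 12 tested maternal genes, 9 had a positive log2 fold change and 3 a negative one. Taken singly, 5 were higher and 1 was lower without overlap between the groups. Called were Btg4 at 2.61 (edgeR adjusted p = 0.00485), Bmp15 at 2.20 (0.0154) and Nlrp5 at 1.55 (0.021). Gdf9 at 1.35 (0.031) and Zp2 at 1.56 (0.0439) were also called. The unmatched gene, H1f8, was present under its older symbol H1foo and is outside these counts and sums. H1foo had 260, 130 and 107 CPM in arsenite libraries, against 70.8, 60 and 19.1 CPM in controls. It was called higher at 1.73 (edgeR adjusted p = 0.0392). Among the 3 negative genes, Zp3 had a log2 fold change of -0.70 (adjusted p = 0.136 in edgeR) and Dppa3 of -0.32 (adjusted p = 0.699). Transcripts of the 2-cell stage summed to 1880, 2055 and 4511 CPM in arsenite libraries, against 900, 1125 and 868 CPM in controls, with 9 of 13 tested higher and 0 lower, and all 13 had counts in all libraries. The 2-cell sums did not overlap. These 13 genes include related copies of the Zscan4, Tcstv, Usp17l and Tdpoz families, so their calls are not independent of each other. Cumulus cell markers, 8 of 12 of them in the table, had overlapping sums of 26.6 to 46.3 CPM in arsenite libraries and 36.8 to 39.8 CPM in controls. Most of each sum was Amhr2, with 20.9, 33.5 and 25.1 CPM in arsenite libraries, against 36.1, 34.8 and 32.6 CPM in controls. Of 4 tested, 1 was called higher: Cyp11a1 had 2.03, 2.62 and 3.36 CPM in arsenite libraries, against 0 in all 3 controls (edgeR adjusted p = 0.0198). Tnfaip6 was higher without overlap and did not pass, with 2.92, 5.25 and 2.48 CPM in arsenite libraries, against 0, 0.112 and 1.22 CPM in controls (edgeR adjusted p = 0.127). Amhr2 and Star had negative log2 fold changes of -0.38 and -0.15. Inhba and Has2 were at 0 in arsenite libraries, and Hsd3b1 at 0 in controls. Blastocyst markers (9 of 11 in the table) had overlapping sums of 72.4 to 143 CPM in arsenite libraries and 77.8 to 106 CPM in controls. Most of each control sum was Tfap2c, with 34.6, 51.6 and 50.1 CPM in arsenite libraries, against 67.5, 67 and 85.5 CPM in controls. Of 8 tested, 1 was called higher, 7 had a positive log2 fold change and the median was 1.77. The called gene, Gata3, had 18.2, 13.6 and 17.1 CPM in arsenite libraries, against 3.61, 3.57 and 7.2 CPM in controls (edgeR adjusted p = 0.0399). Other somatic markers (8 of 11) summed to 144 to 326 CPM in arsenite libraries and 316 to 418 CPM in controls, nearly all of it Epcam. Epcam had 134, 174 and 314 CPM in arsenite libraries, against 305, 402 and 305 CPM in controls (edgeR adjusted p = 0.181), while Vim had 0.254, 6.96 and 4.09 CPM in arsenite libraries, against 0, 1.01 and 0 CPM in controls. Col1a2 and Acta2 were at 0 in controls. The part of these marker differences in the values of Kdm5b, Kdm1b and Hdac2 was not tested.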

How the data were processed

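The deposited table gives raw read counts, whole numbers with a row for each gene symbol. Per the submitters' processing notes, the build was mm10 and the tools included STAR, featureCounts 1.6.2, StringTie 2.1.4 and DESeq2 1.30.1, without roles. Neither the annotation nor the strand setting was stated, and the labels' protocols describe a pair of kits, so the kit is uncertain. Of 18660 rows, 11 whose symbol had become a date (0.0432% to 0.0818% of counts) were dropped, and 0 columns lacked a sample. The test was edgeR 4.0.16 under R 4.3.3 (TMM, filterByExpr, two-sided quasi-likelihood, no covariate) on 12582 genes, checked on simulated data. The common biological coefficient of variation was 0.495. No libraries agreed within sampling noise (chi-square per degree of freedom 31.8 or more). GENCODE M21 matched 98.8% of symbols, and CPM per kb used the union of exons.

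Pairing was checked across genes. Deviations from group means correlated at 0.189, 0.221 and 0.178 where arsenite and control libraries had the same number, and between -0.164 and -0.0238 otherwise. With each same-number value over 0.1, the numbers may pair the libraries. Deviations within a group sum to 0, so positive same-number values force negative ones elsewhere, and the latter are no separate evidence. What a number stands for is not in the labels. The fit reported as the result, with its SEs and counts, ignores the numbers, and the replicate block is an alternative. Alternatives were RLE scaling, library size only, no filter, DESeq2 1.42.0, voom (limma 3.58.1), the replicate block, length and GC trends removed (mgcv 1.9.3), both together, and each library left out. The members and lists were chosen with earlier results of these data known. Named genes are the 10 enzymes, the 4 core subunits and, in other lists, the called members (the 5 with the smallest p where more passed) or, with none called, the 2 with the smallest p. Dek, Ccdc77, Gm49388, Kdm5c, Kdm5d, Kdm6a, Bod1l, Ing2, Rcor1, Chd1 and the single markers were named after their values were seen.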

Additional observations from a re-analysis of the deposited data

How the results depend on the processing

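Against 0 enzymes called higher and 1 lower, 1 was higher (Kdm1b) with no filter, with DESeq2, with voom, with the replicate block and with the block and length and GC trends removed together. Enzymes called lower numbered 2 (Kdm5a and Kdm5b) with library size only, with DESeq2, with the trends removed and with both together, and 0 to 2 when a library was left out. Kdm5b lost its call without arsenite replicate 1, control replicate 1 or control replicate 3, and Kdm1b was never called with a library left out. In the 5 related lists, with 4, 12, 6, 12 and 16 genes tested, 3 were higher and 4 lower, beside 9.43% higher and 7.26% lower over all genes. Higher calls were 6 with the replicate block, where 13.4% of all genes were called higher, and 1 to 3 with a library left out. Lower calls were 8 with DESeq2, 7 with the trends removed, 8 with both together and 0 to 4 with a library left out. Over all genes 1187 were higher and 914 lower. Lower calls were 1568 with DESeq2, 1586 with the replicate block, 1428 with the trends removed and 2009 with the block and the trends removed together. Leaving out a library gave 217 to 930 higher and 180 to 1072 lower. The split moved to 930 higher and 1070 lower with library size only and to 1113 higher and 1428 lower with the trends removed, as the median of all genes shifted by -0.12 and -0.10. Small fold changes crossed 0: Kmt2c ranged between -0.21 and 0.08 with a library left out, and Setd1a was 0.02 with the trends removed, 0.04 with both and between -0.53 and 0.06 with a library left out. The other 8 enzymes kept their sign in all 14 alternatives, and no difference in a paralog ratio changed sign. The cause of these changes was not tested. Depth limits Kmt2a and Setd1b most, with 10 to 101 and 18 to 71 counts per library.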

Other observations

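Proteins that read H3K4 methylation gave 6 calls. Of 16 tested, 2 were higher and 4 lower, beside 9.43% higher and 7.26% lower over all genes, and the difference from other genes was not tested. The median log2 fold change was 0.06 for the readers and 0.07 for all genes tested. With the replicate block 3 were higher, Ing2 being added (adjusted p = 0.0442), and 4 lower. Spin1, a tudor-domain reader of trimethylated H3K4, had 20848, 29423 and 22620 CPM in arsenite replicates 1 to 3, against 6925, 5089 and 3757 CPM in control replicates 1 to 3, a log2 fold change of 2.21 ± 0.36 (SE) with an edgeR adjusted p of 0.0059. Phf8, a demethylase whose PHD finger binds trimethylated H3K4, had 119, 64.8 and 84.4 CPM in arsenite libraries, against 43.9, 30.6 and 44.9 CPM in controls (1.17 ± 0.34, adjusted p = 0.0403).

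The 4 readers called lower, which are named because of that call, did not overlap between the groups. Of the 16 readers 4 were lower without overlap and 5 were higher without overlap, beside 19.7% and 21.9% of all tested genes. Ing4, a subunit of a histone acetyltransferase complex, had 12, 18.8 and 6.57 CPM in arsenite libraries, against 28.3, 65.2 and 36 CPM in controls (-1.79 ± 0.48, edgeR adjusted p = 0.0322). Sgf29, the reader of the SAGA complex, had 32.2, 21.7 and 5.99 CPM in arsenite libraries, against 73.2, 81.9 and 52.2 CPM in controls (-1.79 ± 0.52, adjusted p = 0.0405). Dido1 had 50.5, 74 and 54.2 CPM in arsenite libraries, against 143, 90 and 142 CPM in controls (-1.07 ± 0.32, adjusted p = 0.0432). Chd1, a chromatin remodeller named after its values were seen, had 214, 214 and 199 CPM in arsenite libraries, against 458, 289 and 471 CPM in controls (-0.96 ± 0.29, adjusted p = 0.0452). With a library left out, the largest adjusted p was 0.114 for Ing4, 0.107 for Sgf29, 0.144 for Dido1, 0.130 for Chd1 and 0.176 for Phf8.

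Among the KDM1 partners Rcor1, the CoREST scaffold named after its values were seen, had 63.8, 88.5 and 56.2 CPM in arsenite libraries, against 116, 119 and 133 CPM in controls, with a log2 fold change of -0.82 ± 0.30 (SE) and an edgeR adjusted p of 0.0787, which was 0.0478 with the replicate block.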
